A study of Mus musculus with 32 samples.

Results

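The genes described here belong to the synaptic vesicle and release machinery. They were chosen by symbol alone from the gene table of the series, with no measured value used: synaptotagmins (Syt), syntaxins (Stx), vesicle-associated membrane proteins (Vamp), Snap genes, syntaxin-binding proteins (Stxbp), complexins (Cplx), Sv2 genes, synapsins (Syn), synaptophysin (Syp), synaptoporin (Synpr), synaptogyrins (Syngr), Rims and Unc13 genes, Bsn, Pclo, Nsf and the adaptors Napa, Napb and Napg. The choice gave 83 of the 44081 genes, of which 79 had at least 1 read and 65 could be tested between compartments. Hippocampal neurons of C57BL/6 mice at embryonic day 18 were grown for 15 days, and a micropipette drew dendrites and soma of 16 untreated neurons into separate tubes, for 16 dendrite and 16 soma libraries paired by cell. RNA with a poly(A) tail was amplified by in vitro transcription in 3 rounds for neurons 1 to 4 and in 2 rounds for neurons 5 to 16. Each library was therefore 1 compartment of 1 cultured cell, and less RNA of a gene and less material drawn into the pipette cannot be told apart in it.

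Release of transmitter depends on SNARE proteins, which zip together from the vesicle side (Vamp proteins) and the plasma membrane side (syntaxins and Snap25) and so pull both membranes into contact. Munc13 (Unc13) proteins prepare the SNAREs, complexins clamp and assist them, synaptotagmins couple fusion to calcium, and the ATPase NSF with its SNAP adaptors takes the spent complexes apart. The vesicles carry Sv2, synaptophysin and synaptogyrin proteins, are tethered by synapsins, and dock at a scaffold of Rims, Bassoon (Bsn) and Piccolo (Pclo). These proteins work in axon terminals, but related SNAREs move membrane in the whole cell, including the receptor traffic of dendrites. Some members bear only the name: Snap91 encodes AP180, a clathrin adaptor of vesicle retrieval, and Vamp7-ps is a pseudogene.

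The amplification starts at the poly(A) tail, so most reads lay near the 3′ ends of the transcripts. The last 30 bases of the most downstream coding transcript in GENCODE M21 (GRCm38, the same assembly as mm10) are therefore shown for the 8 members on which the results turn, 5′ to 3′ on the strand of the gene, with the poly(A) signal in capitals.
Snap25: ttATTAAAaattatagatcacagccaccga
Syt1: actcAATAAAaatgttttatttcctgttga
Cplx1: acagccAATAAAcagtgatttcacaccgtg
Napb: tacagtaAATAAAgtggaagttatcggtaa
Vamp2: aatgtacAATAAAcgtgtaatgagtaacca
Stx16: cAATAAAgcaatctcacagattgaagagca
Sv2a: AATAAAgggttcgaacccttaaaacccaaa
Snap91: AATAAAcaccttgaaccaagaaaatgcaaa
All 8 windows are the ends of 3′UTRs. Those on the plus strand are chr2:136782399-136782428 (Snap25), chr11:69092355-69092384 (Vamp2), chr2:174099742-174099771 (Stx16) and chr3:96195492-96195521 (Sv2a). Those on the minus strand are chr10:108497650-108497679 (Syt1), chr5:108518554-108518583 (Cplx1), chr2:148693985-148694014 (Napb) and chr9:86765923-86765952 (Snap91). Snap25, the member with the most reads, ends with ATTAAA, and the other 7 with AATAAA. Of the 76 members examined, 55 (72.4%) held AATAAA or ATTAAA on the gene's strand in this window, against 62.6% of 21901 coding genes. The windows are annotated ends and need not be the ends that gave the reads.

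Dendrite libraries held 646521 to 6954420 reads on 3′UTRs and soma libraries 925525 to 21169974, without molecular identifiers. Levels are given as CPM, per-million read counts of the library after TMM scaling. Dendrites 15 and 16 stood apart from the others. They had reads on 22 and 32 of the members, against 43 to 73 in the other dendrites and 53 to 74 in the somas. They also had reads on the fewest genes in all (3888 and 6252, against 7823 or more in other dendrites) and the highest mitochondrial shares (35.8% and 32.4% of reads, against at most 25.8%), although their totals of 2235244 and 1736725 reads lay above the dendrite median of 1605714. Results that rest on them are given with and without both neurons. In the somas, 7 interneuron markers summed to 1284 to 20208 CPM and 7 pyramidal markers to 102 to 2814, with Gad1 and Gad2 present in every library. In dendrites the same sums were 2075 to 12343 and 402 to 6916. The pyramidal sum was higher in dendrites in 14 of 16 neurons, and the interneuron sum in 1. The pyramidal sum had medians of 2494 CPM in dendrites and 523 in somas, and Map2 alone had 2302 and 366. Medians of the other pyramidal markers ran in both directions. Glial and endothelial lists summed to at most 514 CPM in somas, but reached 1675 (astrocyte), 609 (oligodendrocyte), 387 (microglia) and 135 (endothelial) in single dendrites, and their part in the results was not tested.

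The members took a smaller share of the reads in the dendrites than in the soma of every neuron. In dendrites the share ran from 0.710% to 1.91% with a median of 1.17%, and in somas from 1.28% to 2.31% with a median of 1.90%. The groups overlap, but within a neuron the soma was the higher in 16 of 16 pairs. The means were 1.19% ± 0.346 (SD, n = 16) and 1.86% ± 0.319 (SD, n = 16). Mitochondrially encoded RNAs, which took 15.3% of dendrite and 2.02% of soma reads, enter this total, and without them the shares were 1.40% ± 0.356 and 1.90% ± 0.330 (SD, n = 16), again higher in the soma in 16 of 16 neurons. The split was the same with 3 rounds (4 of 4 neurons) and with 2 rounds (12 of 12), and on exon counts in 16 of 16. Without neurons 15 and 16 the means were 1.24% and 1.84%.

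**Figure D1:**
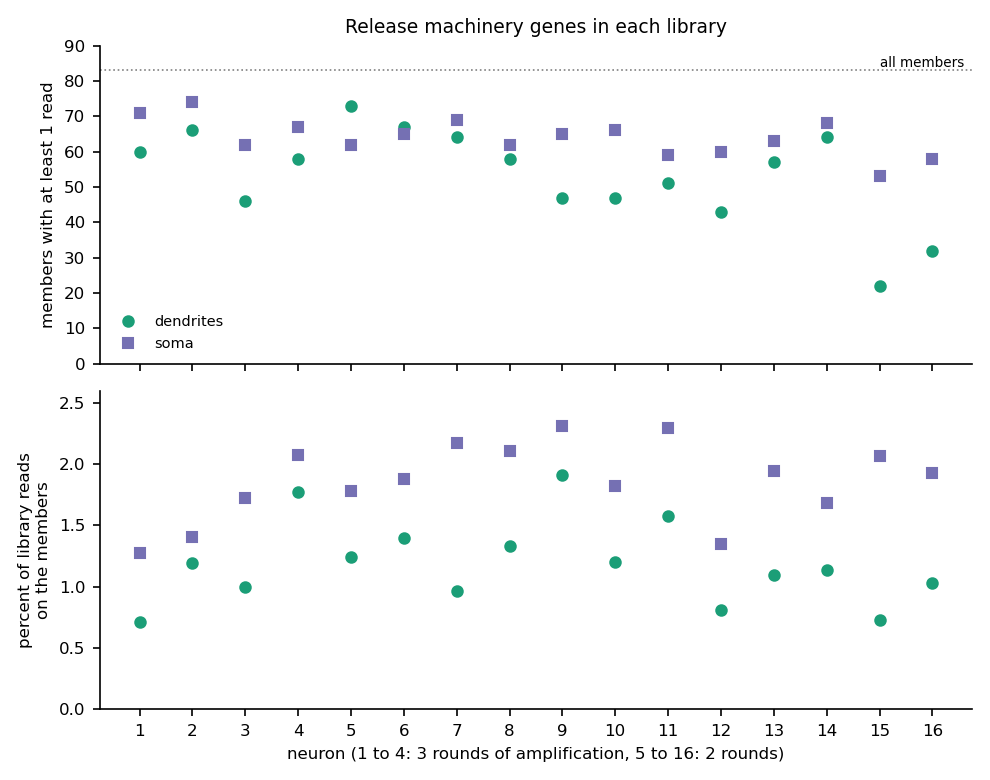
The upper panel plots the number of members with at least 1 read in each dendrite (circle) and soma (square) library, and the lower panel the percent of library reads on the members, by neuron. Dendrites 15 and 16 have 22 and 32 members with reads, and in the lower panel every soma lies above the dendrites of its own neuron.

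The study called an RNA constitutive in dendrites when 15 or more of the 16 dendrites held reads of it. By that count 16 members (19.3% of 83) were constitutive, against 1863 of all 44081 genes (4.23%). They spanned most of the fusion cycle. Among them, Cplx1, Napb, Nsf, Syn1, Syngr1, Syt1 and Vamp2 had reads in all 16 dendrites, and Napa, Rims1, Snap25, Snap47, Sv2a, Syn2 and Syt11 in 15. All of these also had reads in 16 somas, where 45 members (54.2%) and 6264 genes in all (14.2%) had reads in 15 or more. A minimum of 10 reads in place of 1 left 10 members, and without neurons 15 and 16 the same rule (13 of 14 dendrites) gave 31 members (37.3%, against 7.15% of all genes). No test was made of these counts, and the members were not matched to other genes on their level.

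In contrast, 4 members had no reads in any library: Syngr2, Syngr4, Stxbp3b and Syt8, for which 0 of 150347351 reads allows up to 0.0200 CPM (3 reads over all libraries, for counting error only). A further 14 had reads in too few libraries to be tested, with 7 reads (Stx19) to 1111 reads (Sv2c) in all. These were Stx2, Stx11 and Stx19 of the plasma membrane syntaxins, Vamp8, Vamp7-ps, Stxbp3a, Cplx3, Cplx4, Unc13c, Sv2c, Syt6, Syt9, Syt10 and Syt12. Cplx3, a complexin known from retina, had reads in 1 dendrite and 4 somas, and Cplx4 in 2 dendrites and no soma.

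Of the 65 members tested with edgeR, none was called higher in dendrites and 2 (3.08%), Stx16 and Vamp7, were called higher in somas. Over all 10880 genes tested the shares called were 0.827% higher in dendrites (90 genes) and 5.71% higher in somas (621 genes). These shares rest on few calls and were not tested against each other. At an unadjusted p under 0.05, 1 member lay higher in dendrites and 19 in somas, or 30.8% of the members against 30.2% of all genes. The median log2 fold change (dendrites over somas) was -1.002 for the members and -1.49 for all genes, so the median member lay 0.49 above the median gene, and 41 of 65 members (63.1%) lay above it. Without neurons 15 and 16, the members' median was -0.73 against -1.01, and the distance 0.27. The distance was not kept by every setting: it was -0.82 when all genes with 1 read were fitted, -0.03 with the 4 neurons of 3 rounds alone and -0.01 without the block for neuron.

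**Figure D2:**
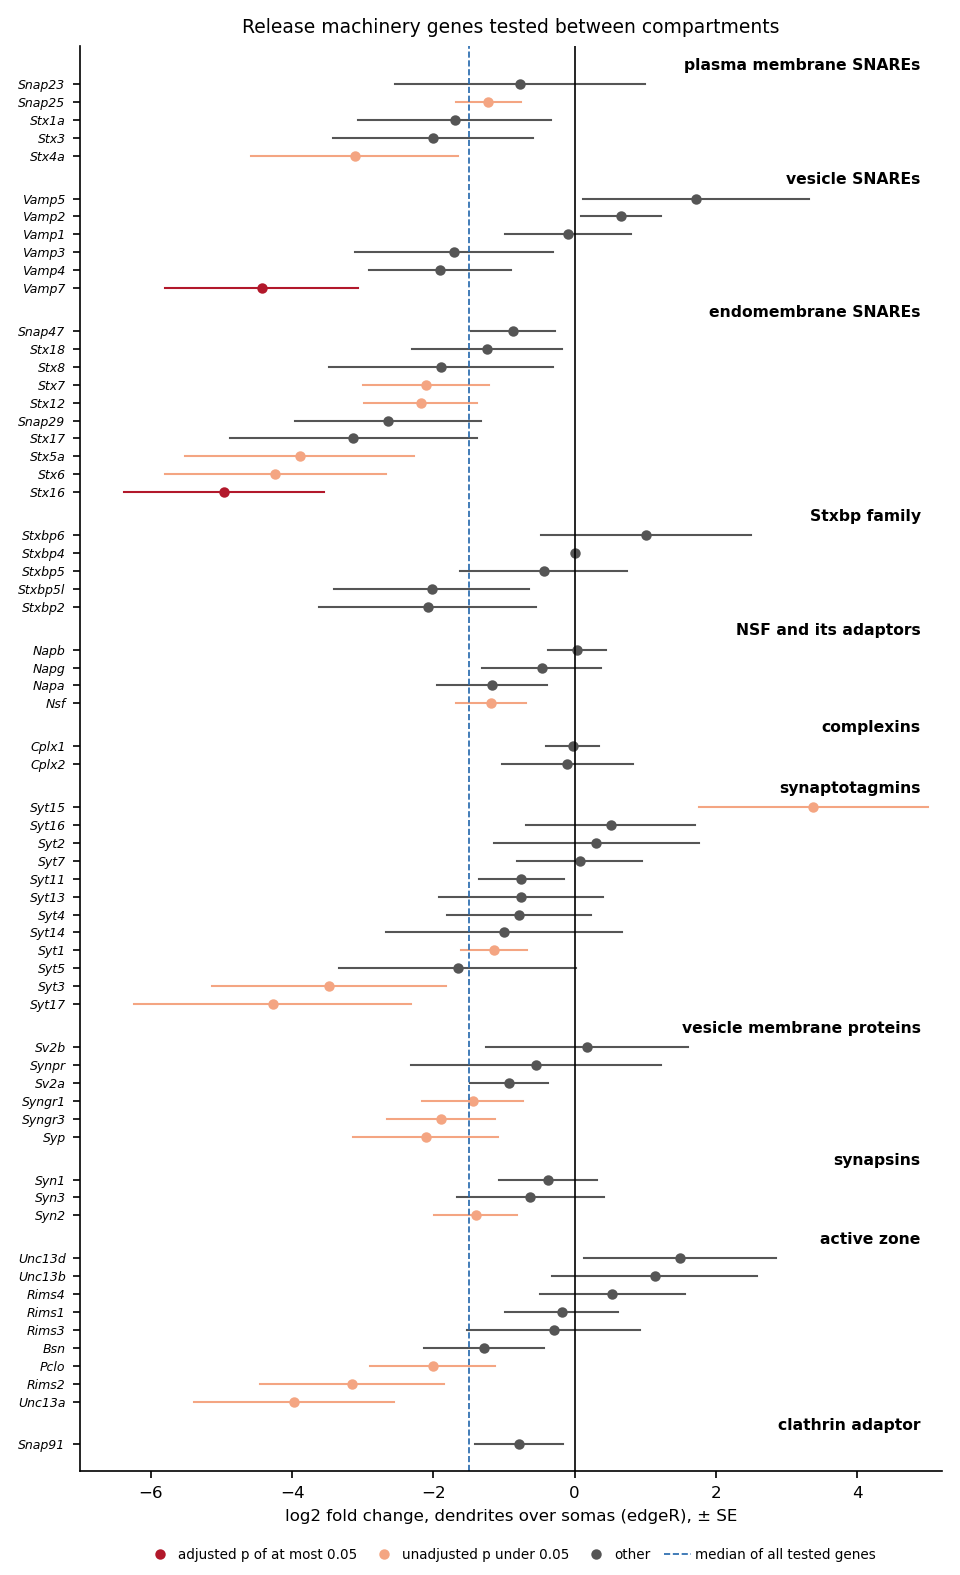
Each point is the log2 fold change of a tested member (2 tested members are not drawn), dendrites over somas, from edgeR on 16 neurons, with its standard error (not drawn for Stxbp4, whose fold change near 0 gives no usable error), grouped by role. The dashed line marks the median of all 10880 genes tested at -1.49, and the 2 members with an adjusted p of at most 0.05 are Vamp7 and Stx16.

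The SNAREs of the plasma membrane form the target side of vesicle fusion. Snap25, which gives each fusion complex a pair of its helices, had more reads than any other member. In CPM it ranged from 0 to 4339 in dendrites, with a median of 1198, and from 1775 to 4078 in somas, with a median of 2712. The soma was higher in 15 of 16 neurons, neuron 4 being the exception, and dendrite 15 had 0 reads where its soma had 24694. The log2 fold change was -1.22 (SE 0.46, adjusted p = 0.081), and without neurons 15 and 16 it was -0.94 (SE 0.21, adjusted p = 0.020), which passed. Snap25 was the 1 member called in that fit, where 0.625% of all genes were called higher in dendrites and 0.928% in somas.

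Stx1a, a syntaxin of synaptic release, ranged from 0 to 128 CPM in dendrites (median 5.38) and from 0 to 68.8 in somas (median 22.6), was higher in the soma of 10 of 16 neurons and lay at -1.70 (SE 1.36, adjusted p = 0.38). Its direction is uncertain, since the mean was higher in dendrites (31.2 against 22.7 CPM) and the fit without the block for neuron gave 0.46. The lowest fold change of the group was -3.12 (SE 1.47, adjusted p = 0.15), that of Stx4a, a syntaxin of constitutive exocytosis.

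The vesicle SNAREs ran from -4.43 (Vamp7) to 1.72 (Vamp5). Vamp2 (synaptobrevin), the main vesicle SNARE of transmitter release, was present in every library, at 70.9 to 711 CPM in dendrites (median 214) and 34.9 to 301 in somas (median 202). Its dendrites were the higher in 13 of 16 neurons, with ranges that overlap, and the log2 fold change was 0.66 (SE 0.56, adjusted p = 0.41), 2.15 above the median gene, but -1.88 under the spike-in scaling described later. Vamp7, a SNARE of late endosomes and lysosomes, was at 0 to 148 CPM in dendrites (median 3.04) and 2.08 to 165 in somas (median 53.6). It was higher in the soma in 14 of 16 neurons, all but neurons 10 and 14, with reads in 10 dendrites and 16 somas. Its log2 fold change was -4.43 (SE 1.37, adjusted p = 0.042) and -3.68 (SE 1.36, adjusted p = 0.14) without neurons 15 and 16. With 1 neuron left out the adjusted p ran from 0.031 to 0.11, and the call held without neuron 2, 8, 10, 11 or 14 and was lost without any of the others. Reads of Vamp7 could be split with its pseudogene Vamp7-ps, which had 291 reads in all, so its level is uncertain.

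Vamp1, the sister gene of Vamp2, differed widely from cell to cell. It ran from 0 to 2909 CPM in dendrites and 2.05 to 988 in somas. The highest dendrite was that of neuron 15, where it took 27.1% of all reads on members. Its log2 fold change was -0.10 (SE 0.90), but 0.70 without the block. Vamp4, a SNARE of the trans-Golgi network, had medians of 37.8 and 102 CPM, with 14 of 16 neurons higher in the soma, and lay at -1.90 (SE 1.01, adjusted p = 0.19). Vamp5, first known from muscle, was at 1.72 (SE 1.60) on 1644 reads in all.

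The 10 SNAREs of the inner membranes centred at -2.41 (median, log2 scale), 0.92 below the median gene. All 10 were below 0 (8 with the median gene set near 0 or with 3 rounds alone, 9 without the block). At 10 or more reads Stx5a was not tested, and the other 9 were all below 0. In the main fit 8 lay below the median gene, with 1 call. With 3 rounds alone the median was -0.83, against -1.08 for the plasma membrane SNAREs, and roles were not tested against each other. Stx16, a syntaxin that returns vesicles from endosomes to the trans-Golgi network, was that call. It ran from 0 to 51.0 CPM in dendrites, with a median of 0.386, and from 0 to 102 in somas, with a median of 33.2. Reads were seen in 8 dendrites and 15 somas, the soma was the higher in 14 of the 15 neurons with reads, and neuron 13 was the exception. The log2 fold change was -4.96 (SE 1.42, adjusted p = 0.031), and without neurons 15 and 16 it was -4.34 (SE 1.46, adjusted p = 0.11). The adjusted p ran from 0.030 to 0.083 when 1 neuron was left out, and the call was lost without neuron 3, 4, 7, 10, 15 or 16.

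Stx12 and Stx7, syntaxins of endosomes, were at -2.18 (SE 0.80, adjusted p = 0.076) and -2.11 (SE 0.89, adjusted p = 0.11). Stx12 was higher in the soma in 15 of 16 neurons, with a median of 100 CPM in dendrites (0 to 327) and 278 in somas (161 to 539). Stx6, a trans-Golgi syntaxin, was at -4.24 (SE 1.56, adjusted p = 0.077) on reads in 9 dendrites and 15 somas. Its mean ran the other way (61.1 CPM in dendrites and 44.7 in somas), as did the fit without the block (0.45), and dendrite 12 held 575 CPM where its soma had none. Snap47 stood at the other end of the group, with 15 dendrites holding reads, medians of 485 and 823 CPM, and -0.87 on the log2 scale (SE 0.60, adjusted p = 0.30).

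Complexins and the disassembly machinery lay above the median gene in the fit of all 16 neurons. Cplx1 was present in all 32 libraries at 592 to 3880 CPM in dendrites (median 1325) and 315 to 3314 in somas (median 1429). Neurons split evenly, 8 higher in dendrites and 8 in the soma, and the log2 fold change was -0.03 (SE 0.38, adjusted p = 0.96), 1.46 above the median gene. Cplx2 lay at -0.11 (SE 0.93) and at 0.43 without the block, with medians of 168 and 70.1 CPM. Napb, the SNAP adaptor made in brain, had 225 to 4164 CPM in dendrites (median 1196) and 407 to 1879 in somas (median 1267), split 8 to 8 as well, and was at 0.03 (SE 0.41, adjusted p = 0.96). Nsf itself had medians of 676 and 987 CPM, was higher in the soma in 13 of 16 neurons and lay at -1.19 (SE 0.50, adjusted p = 0.11). Napa was at -1.17 (SE 0.78) and Napg at -0.47 (SE 0.84), and in this fit all 4 genes of disassembly were 0.30 or more above the median gene. Without neurons 15 and 16 their median lay 0.70 above it, with Nsf at -0.83 against -1.01 for the median gene. With 3 rounds alone Nsf (-1.09), Napa (-1.26) and Napg (-0.65) lay below the median gene at -0.62, and Napb (1.20) above it.

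**Figure D3:**
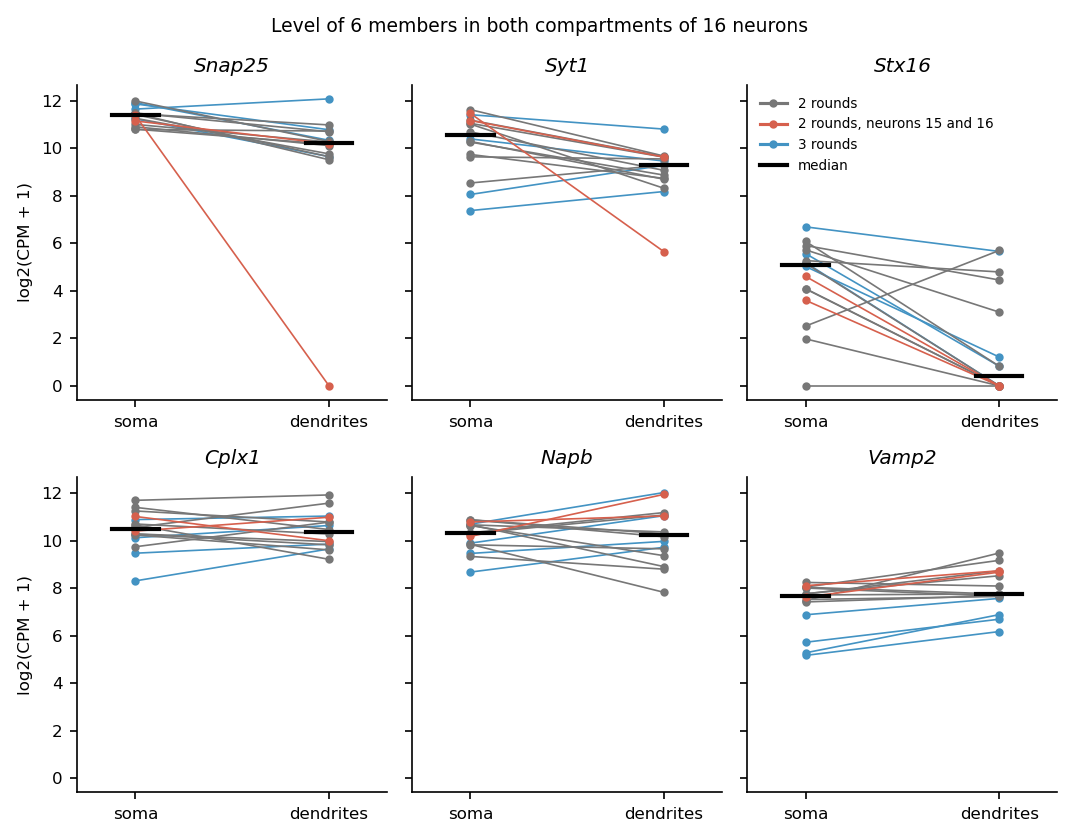
Levels of 6 members as log2(CPM + 1), with a line for each of the 16 neurons joining soma and dendrites and black bars at the medians. Snap25, Syt1 and Stx16 (upper row) have lower medians in dendrites, Cplx1, Napb and Vamp2 (lower row) have medians close to those of the somas, and the neuron whose dendrites hold no Snap25 is neuron 15.

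Syt1, the fast calcium sensor of release, was in all 32 libraries. It ranged from 48.9 to 1793 CPM in dendrites (median 626) and from 165 to 3167 in somas (median 1498.5), and the soma was higher in 13 of 16 neurons. The log2 fold change was -1.14 (SE 0.46, adjusted p = 0.10), or 0.35 above the median gene. Syt11, which lacks calcium binding, was at -0.75 (SE 0.60, adjusted p = 0.37), with medians of 476 and 758 CPM, and Syt7, a slower sensor, at 0.07 (SE 0.88) with medians of 125 and 123. The 12 synaptotagmins tested had a median of -0.78. They ran from -4.27 (Syt17, reads in 5 dendrites and 11 somas) to 3.38 (Syt15), and 9 lay above the median gene. Syt15 was the 1 member with an unadjusted p under 0.05 and a higher level in dendrites (SE 1.62, p = 0.042 unadjusted, adjusted p = 0.15), but it had reads in 9 dendrites and 8 somas and 976 reads in all.

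Among the Stxbp genes, Stxbp5 and Stxbp5l, the tomosyns that hold SNAREs back, were at -0.44 (SE 1.19) and -2.03 (SE 1.37), but had higher means in dendrites (135 against 65.7 CPM and 66.6 against 39.9) and lay at 1.04 and 0.74 without the block, so that neither has a settled direction. Stxbp6 and Stxbp4 had medians under 3 CPM in both compartments.

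The 6 tested genes of vesicle membrane proteins had a median of -1.19, which is 0.31 above the median gene. This distance turned to -0.23 without neurons 15 and 16, to -0.29 with 3 rounds alone and to -0.06 on exon counts. It stayed above 0 with 2 rounds alone (0.03) and under the spike-in scaling (0.18). Sv2a, the binding site of levetiracetam, ranged from 0 to 1557 CPM in dendrites (median 558) and from 67.1 to 3242 in somas (median 1280), and was at -0.93 (SE 0.55, adjusted p = 0.23). Syngr3 and Syngr1 were at -1.89 (SE 0.76, adjusted p = 0.098) and -1.44 (SE 0.72, adjusted p = 0.17). Syp, the protein most used to mark synapses, had medians of 39.7 and 123 CPM, with 15 of 16 neurons higher in the soma, and lay at -2.11 (SE 1.03, adjusted p = 0.16).

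All 3 synapsins, which tie vesicles into a reserve, lay above the median gene under TMM with all 16 neurons, Syn2 by 0.09. Without neurons 15 and 16, Syn2 was at -1.24, below the median gene at -1.01, while Syn1 (-0.05) and Syn3 (-0.17) stayed above it. With 2 rounds alone Syn2 was at -1.74 against -1.73 for the median gene, and with 3 rounds alone at -0.30 against -0.62. Syn2 had 0 to 684 CPM in dendrites (median 269) and 147 to 1444 in somas (median 497), with the soma higher in 14 of 16 neurons, and lay at -1.40 (SE 0.59, adjusted p = 0.11). Syn1 was at -0.38 (SE 0.69), with medians of 186 and 187, and Syn3 at -0.63 (SE 1.04), and both changed sign in other settings (Syn1 at 0.25 with 3 rounds alone, Syn3 at 0.18 without the block). Snap91 had medians of 381 and 558 CPM and lay at -0.79 (SE 0.63, adjusted p = 0.37).

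The active zone scaffolds parted by gene. Pclo and Bsn, giant proteins of the release site, were at -2.01 (SE 0.89, adjusted p = 0.12) and -1.29 (SE 0.85, adjusted p = 0.29), with medians of 169 and 138 CPM in dendrites and 243 and 270 in somas. Rims1 was at -0.18 (SE 0.80) and at 0.65 without the block, with 15 dendrites and 16 somas holding reads. Rims2 was at -3.15 (SE 1.31, adjusted p = 0.11) and higher in the soma in 13 of 16 neurons. Rims3 was at -0.30 (SE 1.23) and Rims4 at 0.53 (SE 1.03). Unc13a (Munc13-1), the priming factor of most excitatory terminals, had at most 14.7 CPM in dendrites (median 0.475) and 0.666 to 53.9 in somas (median 19.2), and lay at -3.98 (SE 1.42, adjusted p = 0.070). Its relatives Unc13b and Unc13d, with 1601 and 1204 reads in all, were at 1.14 (SE 1.45) and 1.49 (SE 1.36).

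Levels of different members were compared per kilobase of the 3′UTR annotated in GENCODE M21. On this scale the median over somas was 2105 CPM per kilobase for Snap25, 1545 for Snap47, 905 for Cplx1, 796 for Sv2a and 677 for Nsf. Over dendrites it was 930 for Snap25, 910 for Snap47, 840 for Cplx1, 463 for Nsf and 350 for Napb. Snap25, Snap47 and Cplx1 differed in dendrites by less than their spread between neurons. Most reads came from the last part of a 3′UTR, so a long 3′UTR lowers these values.

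The direction of the small differences depended on how libraries were scaled. With a rescaling of the dendrites that put the median gene close to 0, Cplx1, Napb and Vamp2 were called higher in dendrites (log2 fold changes 1.51, 1.57 and 2.19, adjusted p = 0.0043, 0.0064 and 0.010 from edgeR), and no member was called higher in somas. That is 4.62% of the members higher in dendrites, where 5.42% of all genes were called higher in dendrites and 0.827% in somas. Spike-in reads numbered 59 to 80 in the libraries of neurons 1 and 2 and 3083 or more in all others. Scaled to the spike-in RNA of 14 neurons, the median gene lay at -3.96 and the median member at -3.42. In that fit 41 members (63.1%) were called higher in somas against 61.4% of all genes. No member and 0.147% of genes were called higher in dendrites. On that scale Cplx1, Napb and Vamp2 were at -2.59, -2.60 and -1.88, and the last was not called. With median-of-ratios size factors, 6 of the 65 members were called higher in somas: Snap25, Syt1, Stx12, Stx16, Unc13a and Vamp7. In that fit 1089 of all 10880 genes were called, counting both directions. DESeq2 called 27 (41.5%) higher in somas and 1, Syt15, higher in dendrites, where it called 46.2% and 4.26% of all genes. Snap25 and Syt1 turned to 0.32 and 0.40 with the rescaling, and neither was called.

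**Figure D4:**
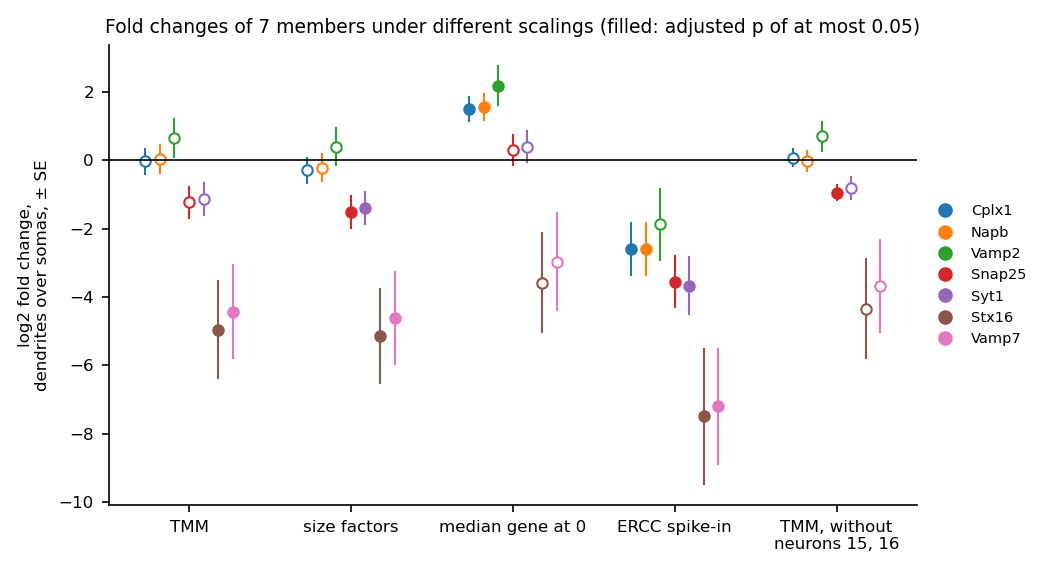
Log2 fold changes of 7 members with standard errors, under 4 scalings of the libraries and under TMM without neurons 15 and 16, where filled points have an adjusted p of at most 0.05. All 7 genes shift together with the scaling, and Vamp2 has the highest and Stx16 the lowest value under each of the 5 settings.

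Genes of 1 family can replace each other, so the share of a family's reads held by 1 gene was compared between compartments in 10 families or pairs, chosen after the gene levels were seen. Within the synapsins, Syn2 held 51.3% ± 28.3 (SD, n = 16) of the reads in dendrites and 68.8% ± 16.0 in somas, lower in the dendrites of 14 of 16 neurons. Syn1 held 40.9% ± 28.4 and 26.3% ± 14.8, higher in dendrites in 12. Neither passed over the 10 shares in an exact permutation test that flips the sign of each neuron (two-sided, p = 0.015 and 0.025, adjusted p = 0.12 for both). Vamp2 held 58.8% ± 34.3 of the Vamp1 and Vamp2 reads in dendrites and 52.9% ± 28.8 in somas, but single libraries ran from 11.6% to 100% and from 4.97% to 98.9%. Snap25 held at least 94.1% of the Snap23 and Snap25 reads in every library compared and Cplx1 at least 58.4% of the Cplx1 and Cplx2 reads. The other 8 shares had unadjusted p of 0.20 or more.

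The dendrites varied more between neurons than the somas did. On the log2(CPM + 1) scale, 57 of the 65 tested members (87.7%) had the larger SD in dendrites, with median SDs of 2.63 and 1.65, against 84.0% of all genes tested. Cplx1, Vamp2 and Syt1 were among the 8 exceptions, with SDs of 0.75, 0.90 and 1.10 in dendrites and 0.82, 1.01 and 1.28 in somas. Part of the spread was complete absence. Among the 335 cases in which a member had at least 1000 reads in a soma, 45 (13.4%) had 0 reads in the dendrites of that neuron, against 17.8% of the 24599 such cases over all genes. These 45 concerned 31 members, and 30 of them came from neurons 15 and 16. In neuron 15 the soma held 29947 reads of Sv2a, 24694 of Snap25 and 11668 of Snap47 and its dendrites none, while Cplx1, Napb and Vamp1 were present there.

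Most members had several 3′ ends in the table of ends: 21 had 1 end, 19 had 2 and 43 had 3 or more, up to 10. For the 28 members with enough reads, the distal fraction (DF) was the percent of reads on the more downstream of the top 2 ends. Which end is the more downstream was inferred from the numbering of the ends, and the opposite numbering would turn every DF difference around. The distal end dominated in 10 members, with a mean over 90% in both compartments, and the proximal end in 5. The DF was higher in dendrites in 14 of the 28 members and lower in 14. The study's criterion, a signed-rank p under 0.1 (taken here from the exact test), was met by 4 members (14.3%) and by 8.44% of the 3508 genes tested, and after adjustment over all genes (Benjamini-Hochberg) 0% of genes passed.

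In all 4 the distal end was the more used in dendrites. Sv2a had a DF of 98.7% to 100% in dendrites (median 100%) and 96.7% to 100% in somas (median 99.9%), with a mean difference of 0.396 ± 0.821 percentage points (SD, n = 15) and the dendrites higher in 10 neurons and lower in none (exact p = 0.0020, adjusted p = 0.76). Snap91 had the largest mean difference of the 4, with 93.7% ± 5.15 in somas and 97.2% ± 2.77 in dendrites (SD, n = 14, exact p = 0.030, adjusted p = 0.91), higher in 10 neurons. Syt11 differed by 0.570 ± 1.44 percentage points (SD, n = 14, exact p = 0.042) and Vamp2 by 0.715 ± 2.44 (SD, n = 16, exact p = 0.077). Vamp2 missed the criterion when neuron 2, 4, 6, 7, 8, 10, 11, 12, 13 or 14 was left out, and without neuron 14 the difference was 0.144 (exact p = 0.15). With the 12 neurons of 2 rounds alone, Syt11 (exact p = 0.15) and Vamp2 (exact p = 0.19) also missed it. The Sv2a fractions rested on 125 to 9625 reads in dendrites and 67 to 50311 in somas. The part of depth in them was not tested.

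Napb used both ends. Its DF ran from 37.4% to 81.8% in somas (51.7% ± 11.6, SD, n = 16) and from 26.7% to 100% in dendrites (62.4% ± 24.3), and the paired difference was 10.6 ± 29.1 percentage points (exact p = 0.19). In the dendrites of neurons 12, 13 and 15 the distal end held 99.5%, 99.9% and 100% of 374, 713 and 3173 reads, where their somas had 37.4%, 50.6% and 54.4%. With 3 rounds the dendrites were lower in all 4 neurons, and with 2 rounds higher in 9 of 12. In 21 of the 28 members the DF varied more between dendrites than between somas (75%, against 67.5% of all genes tested).

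**Figure D5:**
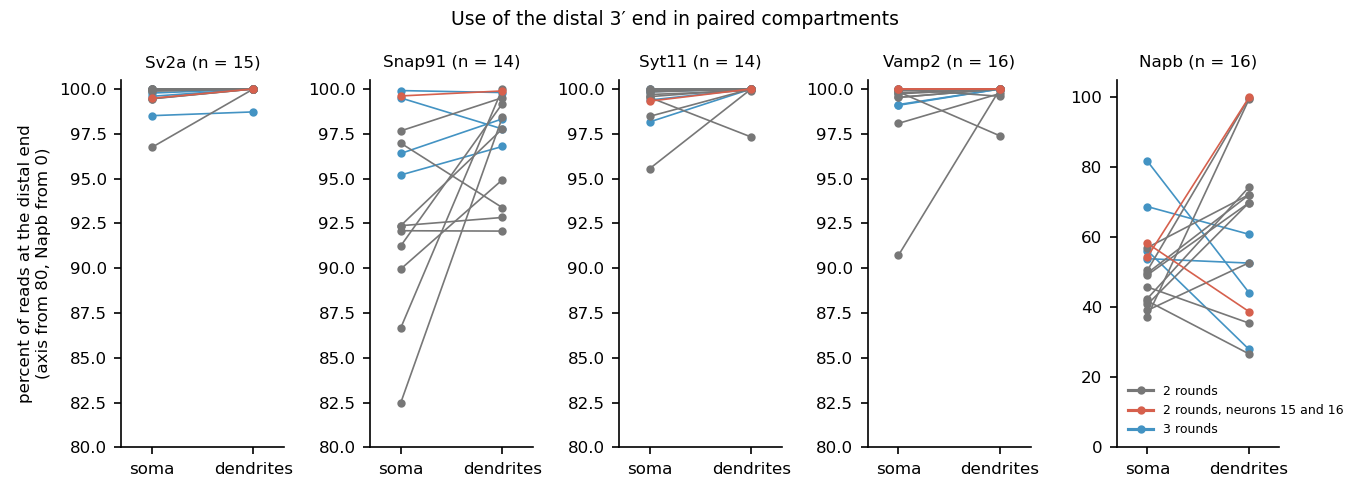
Percent of reads at the distal of the top 2 ends in soma and dendrites, joined by neuron, for the 4 members with an exact p under 0.1 (axis from 80%) and for Napb (axis from 0%). Sv2a, Syt11 and Vamp2 stay close to 100% in nearly all libraries, Snap91 spreads from 82.5% upward in somas, and Napb spreads from 26.7% to 100% in dendrites.

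The rounds of amplification gave no called difference. In the edgeR test of whether the compartment effect depended on the rounds, 0% of the 10880 genes and no member passed, with 2 members and 288 genes at an unadjusted p under 0.05, Stx5a (6.54 higher with 3 rounds on the log2 scale, SE 2.73) and Synpr (-10.99, SE 4.58). Fitted apart, the median member was at -1.04 with 2 rounds and at -0.65 with 3 rounds, against all-gene medians of -1.73 and -0.62. The members therefore lay 0.69 above the median gene with 2 rounds and -0.03 from it with 3, and no member was called in either. Syt1 and Sv2a were at -1.56 and -1.40 with 2 rounds and at 0.31 and 0.76 with 3, Stx16 was at -5.15 and -4.48, and Vamp2 at 0.51 and 1.27.

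Other genes of the synapse were placed on the same scale. A list of 52 further presynaptic genes (endocytosis, transporters, scaffolds and others) had 50 tested, a median of -0.85, and calls of 0 higher in dendrites and 1 in somas. A list of 49 postsynaptic genes had 45 tested, a median of -0.40 and no call. Of these 34 (75.6%) lay above the median gene, of the other presynaptic genes 34 (68.0%) and of the members 41 (63.1%). The lists were not tested against each other. In 15 or more dendrites there were reads of 25 of the other presynaptic, 24 of the postsynaptic and 16 of the 83 release machinery genes.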

How the data were processed

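The deposited counts are whole reads without normalization. The authors trimmed the reads, aligned them to mm10 (STAR 2.4.0, from the submitters' processing notes) and used VERSE to count reads in the 3′UTRs of each gene, at each 3′ end and, in separate files, on exons and ERCC spike-ins. The count table does not say how ends are numbered. They were taken as numbered from the 3′ side, because in the study's list of end coordinates nearly all ends numbered 1 lie at the most downstream annotated end of their gene. No molecular identifiers were used, so counting limits cover reads alone.

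All 44081 genes were filtered to 10880 with reads in 16 or more libraries and fitted with edgeR 4.0.16 (TMM, robust quasi-likelihood test, R 4.3.3) with neuron as a block. Adjusted p-values (Benjamini-Hochberg, over all genes tested) of at most 0.05 were called. SE is the log2 fold change over the root of the test statistic. The block follows from the design, since both libraries came from 1 cell; deviations from compartment means correlated at 0.0887 ± 0.0772 (SD, n = 16 pairs) within neurons and -0.0056 between neurons. No libraries held identical counts. Ends needed 10 reads in both compartments of 5 neurons and were compared with an exact two-sided signed-rank test. DESeq2 1.42.0 was an alternative. All remaining values came from SciPy 1.17.1, pandas 2.3.3 and NumPy 2.4.6 under Python 3.11. Both tests were tested on simulated data.

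The members, lists and tests were chosen with earlier results of these data known. Described members were those called, the 3 with the highest mean level in each role, the 5 with the smallest p in each direction, and those with an end p under 0.1; others named were chosen after their values were seen. Neurons 15 and 16 were left out, and family shares compared, after seeing the data. GENCODE M21 symbols matched all members but Vamp7, Stxbp3a and Stxbp3b, which are given no position; 3 members on chromosome 18 and the pseudogene are left out of the 3′ end windows. The sequencing instrument of each library was not used here. Results for 2 tested members and 1 marker gene are not reported here.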

Additional observations from a re-analysis of the deposited data

How the results depend on the processing

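Calls of single members were few and rested on the settings. Members called higher in somas numbered 2 in the fit described, 27 with DESeq2, 41 with spike-in scaling, 6 with size factors, 1 with at least 10 reads in 16 samples and 1 without neurons 15 and 16. They numbered 0 with equal reads in both libraries of a neuron, exon counts, rescaled dendrites, no filter beyond 1 read, 2 rounds alone or 3 rounds alone, and 0 to 2 when each neuron was left out in turn (0 without neuron 3, 4, 7, 15 or 16). Without the replicate block for neuron, the count was 1 (Syt1). Stx16 was called in 10 and Vamp7 in 5 of the 16 fits that left out a neuron. Members higher in dendrites numbered 0, but 1 with DESeq2 and 3 with rescaled dendrites. The median member moved to -3.42 with spike-in scaling and 0.49 with rescaled dendrites, and ranged from -1.20 to -0.69 with a neuron left out; its distance from the median gene ranged from 0.31 to 0.57 and was -0.82 with no filter beyond 1 read, -0.03 with 3 rounds alone and -0.01 without the block. Among members called in either fit, those that changed sign were Cplx1 with rescaled dendrites (1.51) and Napb with spike-in scaling (-2.60). Constitutive members numbered 10 at 10 reads and 31 without neurons 15 and 16. Members with an end p under 0.1 ranged from 3 to 5 with a neuron left out. The causes were not tested. Of 1094 fold changes of described members under alternatives, 888 kept both their sign and their side of the threshold and 122 changed sign. These were 20 of 38 with rescaled dendrites, 13 of 38 with 3 rounds alone, 9 of 38 without the replicate block, 42 of 608 with a neuron left out and the rest elsewhere. The rescaling moved the median gene from -1.49 to -0.0014, so its 20 sign changes follow from a shift shared by all genes.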
